A study of Mus musculus with 7 samples.

Results

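In intestinal stem cells taken 7 days after bone marrow transplantation, 1183 of 103809 regions of open chromatin (1.14%) held a peak in all 4 libraries from allogeneic recipients (Allo) and in none of the 3 libraries from syngeneic recipients (Syn). These Allo-only regions were selected on the presence and absence of peaks in those 7 libraries, so their difference between Allo and Syn is a description and carries no test. The reverse pattern, a peak in all 3 Syn and no Allo library, occurred in 1051 regions (1.01%), and 50324 regions held a peak in every library. A missing peak says only that none was called, not that the DNA was closed.

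All recipients were female mice of strain B6-GFP-Lgr5, 8 to 12 weeks old, that had been lethally irradiated. Allo recipients were given BALB/c marrow, and Syn recipients were transplanted within the strain. Each library came from 50000 cells sorted by the Lgr5 reporter and pooled from 3 to 4 mice, so the spread between libraries is a spread between pools. Accessibility was measured by Omni-ATAC-seq, in which the transposase Tn5 cuts open DNA and attaches sequencing adapters to it.

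Stem cells that carry Lgr5 sit at the bottom of the intestinal crypts and renew the epithelium. In graft-versus-host disease donor T cells attack tissues of the recipient, the intestine among them, and release interferon-gamma. Interferons act through STAT proteins and interferon regulatory factors (IRFs), which bind promoters and enhancers of genes for GTPases that attack the membranes around pathogens, for antiviral proteins and for antigen presentation.

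Few Allo-only regions lay at promoters, and 6 that did are shown by sequence. Of 32619 RefSeq promoter windows, each 250 bases before to 50 after a start, 23 overlapped an Allo-only region and 14604 a region present in all 7 libraries. The 23 windows had a median GC content of 49.3% and 2 CpG dinucleotides, against 61.3% and 21 CpG in the windows of regions present in all 7. An IRF element, searched as GAAA, any 2 bases and GAAA on either strand, stood in 3 of the 23 windows (13.0%) and in 3.46% of all windows. It stood in 1 of 21 windows that overlapped a Syn-only region (4.76%) and in 4.10% of windows without a region. The share of 13.0% rests on 3 windows and was not tested. A STAT element, TTCNNNGAA, which reads the same on both strands, stood in 2 of the 23 (8.70%) and in 8.34% of all windows. The AP-1 motif TGANTCA stood in 2 of the 23 (8.70%) and in 7.85% of all windows, and the E-box CACGTG in 1 (4.35%) and in 7.198%. The 250 bases before the start are printed for the 4 genes with an IRF or STAT match and for the 2 highest ranked regions of the 23. They come from RefSeq on GRCm38.p6, the build of the peaks, and run 5′ to 3′ on the strand of the gene, with IRF and STAT matches in capitals.
Tgtp1, chr11:48992247-48992496, minus strand: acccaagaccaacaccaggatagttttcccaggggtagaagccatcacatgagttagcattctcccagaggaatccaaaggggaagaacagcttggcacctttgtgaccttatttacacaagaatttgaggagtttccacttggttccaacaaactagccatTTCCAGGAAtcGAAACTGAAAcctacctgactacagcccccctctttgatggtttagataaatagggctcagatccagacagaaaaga
Phf11b, chr14:59341331-59341580, minus strand: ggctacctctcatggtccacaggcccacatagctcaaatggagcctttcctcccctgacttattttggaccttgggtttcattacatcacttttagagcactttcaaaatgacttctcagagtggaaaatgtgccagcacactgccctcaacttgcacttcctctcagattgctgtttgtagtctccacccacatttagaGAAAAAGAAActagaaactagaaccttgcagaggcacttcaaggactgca
Ccm2, chr11:6559933-6560182, plus strand: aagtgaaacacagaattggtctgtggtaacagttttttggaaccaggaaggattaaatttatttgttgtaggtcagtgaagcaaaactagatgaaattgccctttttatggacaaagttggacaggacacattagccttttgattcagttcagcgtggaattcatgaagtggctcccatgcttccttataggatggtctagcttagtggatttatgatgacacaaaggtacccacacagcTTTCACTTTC
Gfi1b, chr2:28621983-28622232, minus strand: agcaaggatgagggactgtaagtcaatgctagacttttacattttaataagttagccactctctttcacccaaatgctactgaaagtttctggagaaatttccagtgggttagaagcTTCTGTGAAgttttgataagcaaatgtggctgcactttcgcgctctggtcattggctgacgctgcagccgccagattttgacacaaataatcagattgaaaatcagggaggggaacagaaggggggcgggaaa
H2-Eb2, chr17:34325425-34325674, plus strand: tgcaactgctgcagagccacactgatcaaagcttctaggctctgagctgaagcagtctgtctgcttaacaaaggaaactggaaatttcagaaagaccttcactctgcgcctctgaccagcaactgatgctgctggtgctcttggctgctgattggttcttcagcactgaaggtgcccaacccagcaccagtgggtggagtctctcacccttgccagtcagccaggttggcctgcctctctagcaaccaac
Gm36245, chr15:77598998-77599247, plus strand: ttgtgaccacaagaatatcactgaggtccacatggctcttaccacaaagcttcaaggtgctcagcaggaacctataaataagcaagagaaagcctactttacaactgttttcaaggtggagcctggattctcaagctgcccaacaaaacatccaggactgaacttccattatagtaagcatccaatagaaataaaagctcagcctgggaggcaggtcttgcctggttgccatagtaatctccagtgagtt

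At Tgtp1, an interferon-inducible GTPase, the 2 matches lay side by side: the STAT element began 88 bases and the IRF element 77 bases before the start. The summit of the strongest peak fell 76 bases before the start, inside the IRF element. At Phf11b the IRF element began 50 bases before the start and the summit lay 28 bases before it. The Ccm2 match, on the opposite strand, ended directly before an inner start of this gene, a regulator of vascular integrity, and the summit lay 19 bases into the transcript. The Gfi1b match began 133 bases before the start, and the summit lay 70 bases after the start. The Allo-only region there ended at chr2:28622100, so this match lay in the promoter window but just outside the region. Gfi1b is a transcriptional repressor of blood cells that also marks tuft cells. H2-Eb2, an MHC class II beta chain gene, and Gm36245, a predicted gene beside Apol10b, held neither element in these windows. A match is a string of letters and not evidence of binding.

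Several libraries stood apart. The deposited lists held 71925, 73668 and 76438 peaks in Syn 1 to 3 and 62977, 76091, 88861 and 81719 in Allo 1 to 4, a difference smaller than the spread between libraries (exact permutation p = 0.657, two-sided). The background pileup, meaning the lowest number of fragments that the peak caller expected at a peak, averaged 3.81 with an SD of 0.756 over the 4 Allo libraries, and 4.97 with an SD of 0.345 over the 3 Syn libraries (two-sided exact permutation p = 0.0857). This background was 4.46, 4.46, 3.28 and 3.05 in Allo 1 to 4 and 4.93, 5.34 and 4.65 in Syn 1 to 3. Every Allo value lay below every Syn value, and the part of this in which regions lack a Syn peak was not tested. Allo 3 and Allo 4 had the lowest values and named their peaks by another scheme than the other libraries. Read depth is unknown. Lgr5, Olfm4 and Ascl2, which mark the crypt base stem cell, had a peak within 1 kb of a gene end in all 7 libraries, as did the epithelial genes Epcam, Cdh1 and Vil1. The leukocyte gene Ptprc, the T cell gene Cd3e and the B cell gene Ms4a1 had none in any library, though 2, 2 and 2 regions of Syn 1 to 3 and 1, 2, 5 and 3 of Allo 1 to 4 were assigned to Ptprc. The T cell gene Cd247 and the myeloid gene Itgam did have such a peak in every library, and the stromal gene Col1a1 in all but Allo 1. Of 10 B cell genes, 3 had such a peak in each of the 7 libraries. Of 36 T and NK cell genes, 5, 6 and 6 had such a peak in Syn 1 to 3 and 5, 8, 7 and 7 in Allo 1 to 4. Their peaks made up 11.1, 11.1 and 10.9 of every 10000 in Syn and 11.1, 12.6, 12.2 and 13.0 in Allo. The part of donor lymphocytes in the Allo-only regions was not tested.

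The Allo-only regions were short and of low strength. Their median width was 497 bp (218 to 1611), against 403 bp for Syn-only regions and 889 bp for regions in all 7 libraries. A region had its 4 Allo peaks ranked by the deposited −log10 p within each library, and the mean of the 4 percentiles, here called its rank, had a median of 28.7 (2.50 to 83.5). It exceeded 50 in 74 of the 1183 regions. The median −log10 q was 6.87, 7.21, 13.3 and 9.54 in Allo 1 to 4, and the median pileup, the number of fragments over the summit, was 24, 24, 32 and 24. Allo 3 held the highest −log10 q in 761 regions, and Allo 1 or Allo 2 held the lowest rank in 458 and 420. Across the regions, the Spearman rank correlation of −log10 q between Allo libraries ran from 0.101 to 0.560 over 6 pairs. This is a description over regions that were all required to have a peak in each library.

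Many regions missed the rule by 1 library. A peak in 3 Allo and no Syn library occurred in 2255 regions, and a peak in all 4 Allo and 1 Syn library in 1095. In the latter the lone Syn peak had a median pileup of 23 and a median rank of 11.6. Inside the rule, 92 regions had a lowest −log10 q under 3, and 660 (55.8%) had at least 5 in all 4 libraries.

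Each library was also read in regions chosen by the peaks of the other 6, though its own peaks had been merged into the regions. Of the regions chosen in the other 6 libraries, 48.3% (1183 of 2452) had a peak in Allo 1, 61.7% (of 1917) in Allo 2, 93.9% (of 1260) in Allo 3 and 87.1% (of 1358) in Allo 4. The same selection gave a peak in Syn 1 for 19.7% of 1473 regions, in Syn 2 for 25.7% of 1592 and in Syn 3 for 25.1% of 1579. Every Allo share was thus above every Syn share, while Allo 1 and 2 fell below the share of all merged regions that they hold, 57.3% and 69.3%. When 1 Allo and 1 Syn library were left out together, the Allo share was higher in 12 of 12 pairs, at 47.6% to 94.4% against 16.9% to 26.1%. These values share regions and libraries, and no test was made of them. With 1 library left out, the regions with a peak in an Allo library were always the 1183 Allo-only regions. Those without a peak in a Syn library were the same 1183. The shares thus restate how many regions missed the rule by 1 library and are no independent support. Merging 6 lists anew gave 2453 Allo-only regions when Allo 1 was dropped and 1918 when Allo 2 was. The Syn-only count became 1785, 1616 or 2021 when Syn 1, Syn 2 or Allo 2 was dropped.

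**Figure D1:**
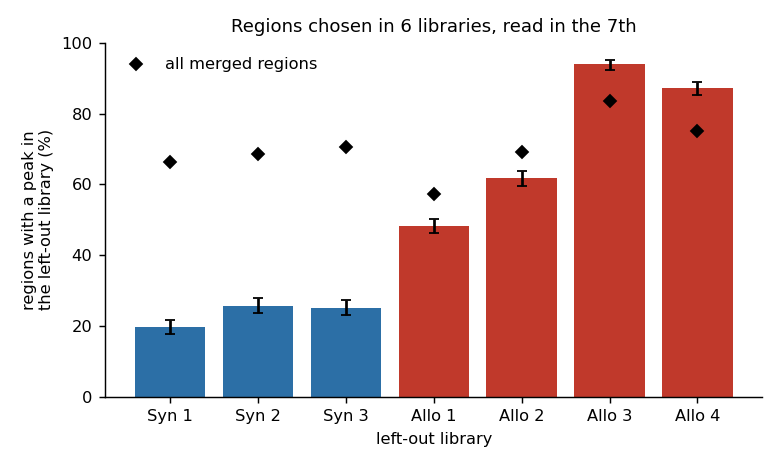
Share of regions with a peak in a library that was left out of their selection, for regions open in the remaining Allo and in none of the remaining Syn libraries (bars, with exact 95% intervals that cover the counting of regions only). Diamonds give the share of all merged regions held by that library. Syn bars stand at 19.7% to 25.7% and Allo bars at 48.3% to 93.9%, with Allo 1 lowest. The bars restate how many regions missed the rule by 1 library and are no independent support.

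Genes of the interferon response held 24 of the 1183 regions (2.03%), while they held 0.470% of all merged regions. The gene lists were chosen with earlier results of these data known, so shares by list are a description and were not tested. Regions were assigned to the protein-coding gene over the summit, or else to the nearest within 50 kb. By function, 12 of 98 regions of interferon-inducible GTPases were Allo-only (12.2%), 9 of 249 of the interferon signalling factors (3.61%) and 3 of 141 of the antiviral effectors (2.13%), beside 1.14% of all regions. Syn-only regions numbered 2 (at Irgm1 and Gm12185), 1 (at Irf2) and 0 in these lists. Repeating the selection with Syn and Allo 1 and 2 alone gave 16 GTPase regions among 1581, and with Syn and Allo 3 and 4 alone 26 among 7040. With any single library left out the number lay between 12 and 17. Leaving out a library loosens the rule, so this number could hardly fall and its range is no support.

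The GTPase regions belonged to 10 genes. Guanylate-binding proteins, which assemble on vacuoles of intracellular pathogens, contributed Gbp2, Gbp4 (2 regions), Gbp8 and Gbp10. Immunity-related GTPases, which disrupt such vacuoles, contributed Igtp, Tgtp1, Tgtp2, Iigp1 (2 regions) and Gm4951. Gvin1 encodes a very large interferon-inducible GTPase. Many of these genes have near-identical neighbours, and the labels do not say how reads that fit several places were treated.

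The region at chr5:105139077-105140109, 32 bp from an end of Gbp4 by its summit, had −log10 q values of 19.5, 21.3, 28.4 and 23.9 in Allo 1 to 4, with pileups of 39, 39, 51 and 41. A second one at chr5:105145291-105146615 had 8.55, 13.3, 14.2 and 8.70. Both merged regions assigned to Gbp4 were Allo-only, so no library of the Syn group had a peak assigned to this gene. Together with Gbp8 (7.83, 13.3, 18.1 and 14.9) and Gbp10 (5.13, 6.52, 29.4 and 25.1), they formed a window of 1 Mb with 4 Allo-only regions among 81. All 4 of these lay 44156 to 201691 bp from the nearest region present in all 7 libraries. The region near Gvin1 on chromosome 7 was the most even of the strong ones, at 25.3, 26.6, 23.7 and 24.3, and lay 424477 bp from such a region. Tgtp1 had 10.1, 12.6, 16.0 and 13.1, Tgtp2 had 7.13, 5.85, 17.2 and 15.9, and Igtp had 3.19, 6.03, 19.2 and 9.57. The 2 Iigp1 regions had 14.2, 18.8, 27.8 and 16.4 and 9.43, 6.57, 8.14 and 6.54. Over the 12 GTPase regions the values ran from 3.19 to 29.4, and Allo 1 was the lowest library at 8 of them.

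Interferon signalling factors were led by Irf1 with 3 regions and Irf9 with 2. Irf1 is a transcription factor induced by interferon-gamma, and Irf9 is the DNA-binding partner of STAT proteins in the answer to type I interferon. The Irf1 regions lay on chromosome 11, 10311 bp to one side of the gene (53759564-53759824), inside its body (53774674-53775293) and 16580 bp to the other side (53794742-53795091). They had high pileups for their rank: the first had 76, 87, 98 and 83 fragments but only 2.07 to 2.33 times the local background, and −log10 q values of 8.52, 10.1, 8.97 and 7.25. It stood 119 bp from a region present in all 7 libraries. The Irf9 pair, 1076 bp from end to end, lay 2939 and 3648 bp from an end of the gene by their summits, with 13.3, 14.0, 17.6 and 11.1 in the first and 6.95, 7.01, 4.36 and 7.48 in the second. Of 3 regions assigned to Irf9, 2 were Allo-only.

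Batf2, a leucine zipper factor induced by interferon, had one of the strongest regions, at 13.1, 26.8, 41.8 and 22.4. Nlrc5 and Ciita, the transactivators of MHC class I and class II genes, had 1 intragenic region each. Nlrc5 reached 9.51, 8.08, 28.7 and 21.9, and Ciita 9.39, 5.78, 22.7 and 10.6. In both, Allo 3 exceeded Allo 1 and Allo 2 by more than the latter differed from each other. Socs1, the feedback inhibitor of JAK-STAT signalling, had a region 14808 bp from its end with even values of 10.2, 10.4, 12.5 and 11.8, which lay 313 bp from a region present in all 7.

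Among antiviral effectors, a region 33 bp from an end of Oas2, which encodes a sensor of double-stranded RNA, had 11.5, 19.4, 34.6 and 24.1. Ifit2, whose product restrains translation of viral RNA, had 7.35, 10.7, 17.3 and 11.3. Rnf213, a large ubiquitin ligase, had 4.35, 11.1, 17.6 and 12.6. Allo 1 was lowest and Allo 3 highest at all 3. Over the 24 interferon regions, Allo 3 was highest in 20, and the median rank was 37.7, against 28.7 for all Allo-only regions.

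Antigen presentation genes with Allo-only regions belonged to class II. MHC class II genes held 3 Allo-only regions among 48 (6.25%) and no Syn-only region. The share of 6.25% rests on 3 regions and was not tested. H2-Eb2 had 15.8, 18.5, 28.3 and 25.1 over its start, H2-Oa, a chain of the class II modulator DO, had 7.13, 6.52, 18.6 and 12.3, and H2-Aa, the alpha chain of I-A, had 2.00, 8.66, 4.25 and 3.40. H2-Aa was thus the weakest of the 3 and lowest in Allo 1. MHC class I genes held 0 among 58 regions, of which 44 were present in all 7 libraries, too few for a share of 1.14% to show. Among checkpoint ligands and chemokines 2 of 146 regions were Allo-only (1.37%). They were Cd274, the ligand of PD-1, with 23.03, 22.5, 13.9 and 6.69, and Il7, a cytokine of lymphocytes, with 21.8, 17.6, 33.6 and 23.8. At Cd274 Allo 1 and 2 lay above Allo 3 and 4, unlike at most regions.

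**Figure D2:**
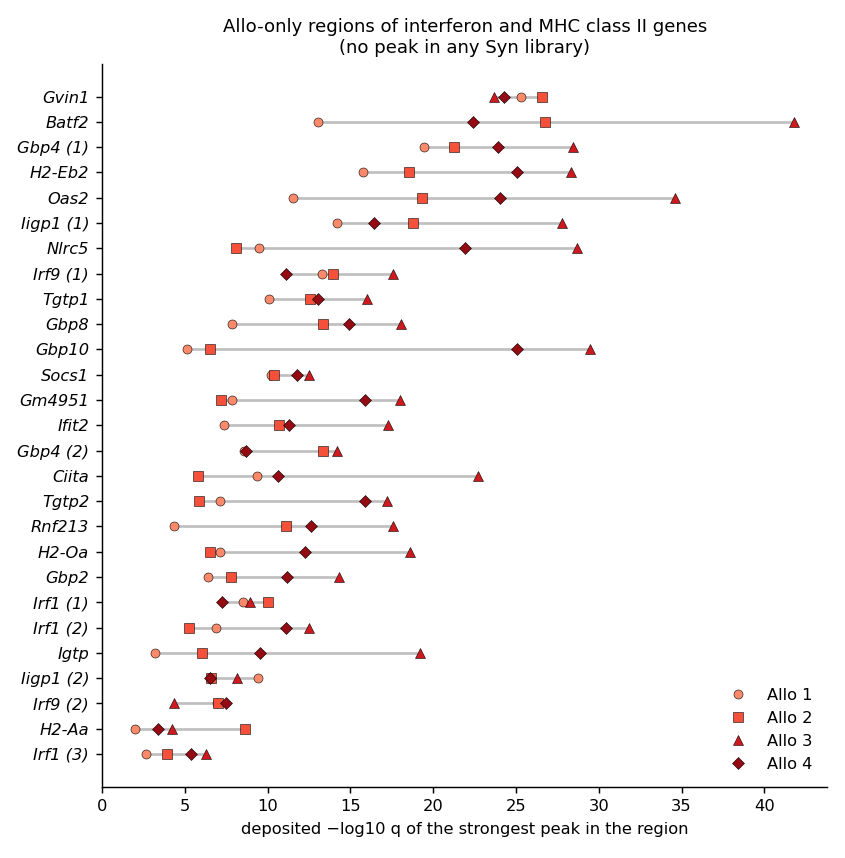
Deposited −log10 q of the strongest peak per region in each Allo library, for Allo-only regions assigned to interferon and MHC class II genes, ordered by rank; numbers after a gene count its regions along the chromosome. No Syn library had a peak in any of them. Gvin1 is the most even of the high regions, and Batf2 spans 13.1 to 41.8.

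Stem cell genes stood near the background, Wnt and Notch genes below it, and the goblet, Paneth, enteroendocrine and tuft cell lists above it. All of these rest on counts of 1 to 3, which are too few to set a list apart from 1.14%. Of 306 regions of stem cell genes 3 were Allo-only (0.980%): 1 near Cd44, an adhesion receptor of crypt cells, and 2 beyond Sox9, a transcription factor of stem and Paneth cells. The 2 Sox9 regions had 12.3, 4.99, 23.7 and 17.2 and 10.5, 8.61, 33.2 and 20.9. Wnt pathway genes held 2 of 314 regions, both at Tcf7l2, the Wnt effector, and Notch pathway genes 1 of 212, at Notch2, where Allo 2 had a −log10 q of 1.80. The lists for p53 and cell death (103 regions), AP-1 and NF-kB (170) and myeloid cells (65) held none, which is no sign of absence in lists of this size at 1.14%. Epithelial identity genes held 5 of 323 (1.55%), among them Cdh1, Ehf and Epcam. Goblet cell genes held 2 of 97 (2.06%), at Muc5ac and Creb3l1, and Paneth cell genes 1 of 46 (2.17%), at Mmp7. Enteroendocrine genes held 2 of 70 (2.86%), at Cck and Sct, and tuft cell genes 2 of 142 (1.41%), at Gfi1b and Gnat3. Enterocyte genes held 1 of 163 (0.613%), at Mttp. Muc5ac, a mucin, was the strongest of these, at 22.6, 18.1, 34.1 and 22.6.

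**Figure D3:**
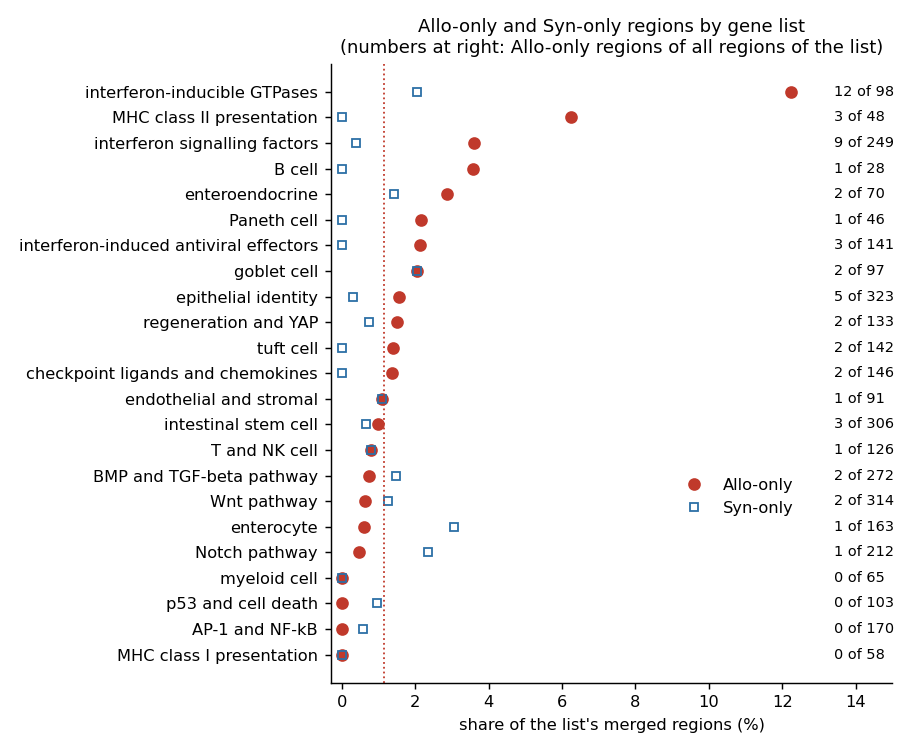
Share of the merged regions of each gene list that were Allo-only (filled circles) or Syn-only (open squares); the dotted line is the 1.14% of all merged regions that were Allo-only. Interferon-inducible GTPases stand at 12.2% (12 of 98 regions) and MHC class II genes at 6.25% (only 3 of 48), and 4 lists hold no Allo-only region.

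The highest ranked region of all lay 119 bp by its summit from an end of Apol10b, an apolipoprotein L gene, at chr15:77598184-77599060. It had −log10 q values of 35.8, 54.6, 47.0 and 48.3 and pileups of 63, 88, 83 and 77, at a rank of 83.5. It was followed by Gtpbp4, a GTPase of ribosome assembly (28.5, 31.9, 58.1 and 46.0), and Pnpla7, a lysophospholipase (28.8, 33.6, 47.3 and 36.1), both with intragenic regions. Agfg1, Crisp2, Garnl3, Gvin1, Muc5ac, Frmd4a, Il7, Batf2, Thsd4, Gbp4 and Cnot10 came next, with a region without a gene within 50 kb on chromosome 9. These 15 had ranks from 62.9 to 83.5, and 4 of them belonged to the interferon or checkpoint lists.

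Genes with several Allo-only regions were few. In all, 1006 regions were assigned to 936 genes, of which 60 had 2 regions and 5 had 3. Syn-only regions gave 58 genes with 2 or more and up to 5 in a gene. Among the 5 genes with 3 were Irf1, Alg14, which takes part in N-glycan synthesis, Atp2b2, a plasma membrane calcium pump, and Stard13, a GTPase-activating protein. These 4 had 19, 10, 18 and 48 merged regions in all. Genes with 2 or more Allo-only regions had a median of 16 merged regions over 107.6 kb, those with 1 had 8 over 57.4 kb, and all 16997 genes with a region had 3. The number therefore moved with how many regions a gene holds, and its part in this count was not tested. Irf1 spans only 8.36 kb, and 2 of its regions lie outside it.

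Alg14, Atp2b2 and Stard13 had mostly weak members. Alg14 had 11.1, 16.7, 17.7 and 13.0 in its first region and 3.83, 3.97, 5.92 and 4.87 in its last. Atp2b2 had one region at 5.54, 8.76, 35.9 and 5.59, where Allo 3 stood alone. Stard13 ranged from 3.39 to 15.1. The share of a gene's regions that were Allo-only was 3 of 10 for Alg14, 16.7% for Atp2b2, 15.8% for Irf1 and 6.25% for Stard13. With genes counted only where the summit lay in the body, 34 in place of 65 genes had 2 or more, and with a −log10 q of at least 5 asked of Allo peaks, 18 had. Without Allo 1, Allo 2, Syn 2 or Syn 3 the number was 235, 161, 111 and 108.

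In 15 of the 16997 genes with a region every assigned region was Allo-only, and 14 of these had just 1. The number of all genes with a single region and the matching Syn-only count are not given here. The 15 therefore stand without a background and set no kind of gene apart. Gbp4 was the one with 2. The others, described here after their values had been seen, included Tigit, an inhibitory receptor (7.83, 3.39, 15.1 and 13.1), Klra7, an NK cell receptor (12.4, 5.20, 29.4 and 12.2), Klrh1 (7.13, 5.20, 37.4 and 7.10) and Rgs1, a regulator of lymphocyte migration (11.6, 13.3, 14.2 and 7.89). Ms4a4d had 18.4, 15.9, 15.1 and 15.9, and Phf11b 7.13, 8.64, 18.97 and 5.59. The remaining genes were Fcna, Bpifa3, Cxcl15, Fbxl12, Frg2f1, Gm11758, Olfr98 and Olfr1431. The T and NK cell list held 1 Allo-only region among 126 (0.794%), in Cd28, the costimulatory receptor, at 5.13, 2.83, 7.42 and 11.3, and 1 Syn-only region, at Klrb1c. The B cell list held 1 among 28, in Ebf1, at 16.6, 9.38, 25.1 and 26.2.

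Along the chromosomes, 132 Allo-only regions (11.2%) had another within 50 kb, and 107 Syn-only regions did (10.2%). Without Allo 1 the former share was 20.3%, and without Allo 2 it was 17.9%. Allo-only regions formed 64 runs, of which 60 held 2 regions and 4 held 3, while Syn-only regions formed 51 runs of up to 4. The runs of 3 lay at Irf1, at Alg14, at Myo1d and Tmem98 and beyond Prkcq, a kinase of T cell receptor signalling. The Prkcq run covered 30970 bp and held 6 merged regions in all, 3 of them Allo-only and 1 in all 7 libraries. Its first region, at chr2:11333334-11333598, had 4.48, 5.87, 5.36 and 10.98, and its second, at chr2:11355537-11356094, had 19.9, 14.2, 12.4 and 9.54. The shortest run was the Irf9 pair. In 21 cases an Allo-only region was the direct neighbour of another among all merged regions, and in 22 cases a Syn-only region was.

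In windows of 1 Mb, 834 held an Allo-only region and 19 held 4 or more, against 7 windows with 4 or more Syn-only regions. Of the 19, 6 held an interferon or MHC class II gene with an Allo-only region. No such count is given for windows with fewer Allo-only regions or for Syn-only windows, so the 6 stand without a background. Among the 6 were the Gbp window, the Tgtp2 and Irf1 windows on chromosome 11 and the window of Ciita and Socs1 on chromosome 16. Also among them were the class II window on chromosome 17 and that of Iigp1 and Gm4951 on chromosome 18. The last held 5 Allo-only among 97 regions, and 5 also stood in the Msi2 window on chromosome 11 (of 122) and in the Il10 window on chromosome 1 (of 90). Msi2, an RNA-binding protein of stem cells, had 2 of them, at 11.7, 6.79, 36.7 and 19.2 and at 13.2, 10.5, 18.5 and 15.4.

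On autosomes 1178 of 101699 regions were Allo-only (1.16%), from 0.844% on chromosome 4 to 1.54% on chromosome 6. Chromosome 11 had 96 Allo-only regions (1.295%) and 43 Syn-only regions (0.580%), and chromosome 17 had 60 (1.35%) and 34 (0.764%). Of the 24 interferon regions, 7 were on chromosome 11. Chromosome X had 5 Allo-only regions among 2110 (0.237%, exact 95% interval 0.0770% to 0.552%) and 31 Syn-only regions (1.47%, 1.00% to 2.08%). The 5 were assigned to Il13ra1, a chain of the interleukin-13 receptor, Atp6ap2, Dmd, Lhfpl1 and Reps2.

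Of the 103809 regions merged from all 7 libraries, 2110 were on X. Leaving out a library loosens the rule, so counts of Allo-only regions tend to rise on any chromosome. With 1 library left out, the number on X was highest without Allo 1 and next highest without Allo 2. Without Allo 1 it was 26 among 2453 Allo-only regions, without Allo 2 it was 15 among 1918, and with Syn and Allo 3 and 4 alone it was 126 among 7040. Without Syn 1, 2 or 3 it was 9, 6 and 10, and without Allo 3 or 4 it was 7 and 5. Syn-only regions on X numbered 32 to 54 with 1 library left out, the highest without Syn 1. Peaks on X made up 1.71%, 1.85%, 1.93% and 1.95% of the lists of Allo 1 to 4 and 2.09%, 2.04% and 2.00% of those of Syn 1 to 3, lowest in Allo 1. In the 892 X regions present in all 7 libraries, the median pileup was 0.848, 0.857, 0.846 and 0.866 of the autosomal one in Allo and 0.879, 0.879 and 0.873 in Syn. The groups did not overlap in either measure, and the part of this in the count on X was not tested. Such a separation was not particular to X. Peaks on chromosome 11 made up 7.53%, 7.41%, 7.41% and 7.41% of the Allo lists and 7.27%, 7.25% and 7.24% of the Syn lists. On chromosome 17 the groups overlapped, and the shares of other chromosomes are not given here.

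**Figure D4:**
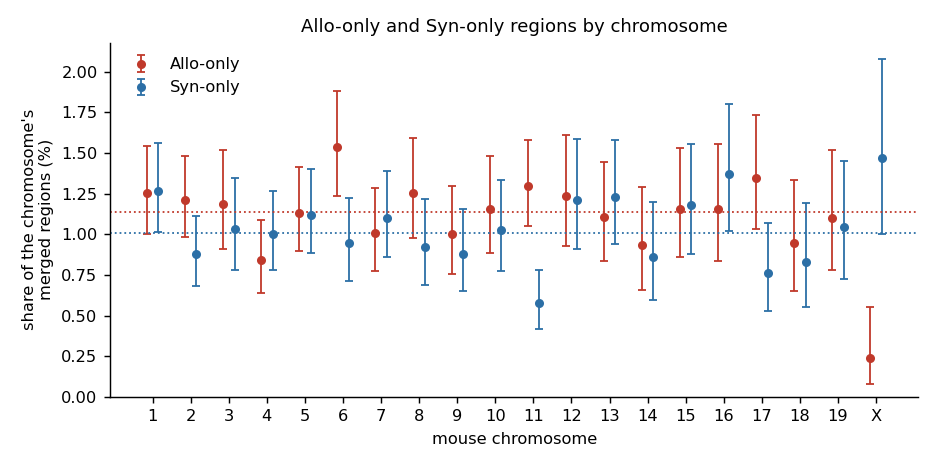
Share of each chromosome's merged regions that were Allo-only (red) or Syn-only (blue), with exact 95% binomial intervals that cover the counting of regions only; dotted lines give the shares over all chromosomes, 1.14% and 1.01%. Chromosome X stands at 0.237% and 1.47%.

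Allo-only regions mostly lay apart from constantly present ones but within reach of them. The median distance from edge to edge to the nearest region present in all 7 libraries was 7990 bp, with quartiles of 3275.5 and 22988.5 bp. It was 8673 bp for Syn-only regions, 7546 bp for regions of any other pattern and 6089 bp between neighbouring regions present in all 7. Within 1 kb lay 10.1% of Allo-only and 12.9% of Syn-only regions, within 10 kb 55.5% and 52.3%, and within 50 kb 89.3% and 84.0%. Within 1 kb the Allo-only share was the lower of the pair, and within 10 kb and 50 kb the higher; these differences were not tested. The 12 interferon-inducible GTPase regions had a median of 17597 bp, with 7 beyond 10 kb. Among these 7 were the 4 regions of the Gbp window on chromosome 5, which are neighbours at 1 place. The regions at Gbp2, Tgtp1 and Igtp lay only 207, 754 and 3074 bp away. Other regions of these genes not present in all 7 had a median of 5427.5 bp. All 24 interferon regions together were beyond 10 kb in 9 cases (37.5%), against 44.6% of all Allo-only regions.

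Single regions stood at both extremes. The closest, 47 to 122 bp away, lay at Gm51582, Plekha5, Irf1 and Fam3b and at a place without a gene on chromosome 5. Those at Gm51582 and on chromosome 5 had −log10 q values of at most 4.95. The farthest, 1172129 bp away, lay on chromosome 3 with no gene within 50 kb and had 13.9, 2.83, 29.8 and 11.3. It was followed by Pcdh20 at 1078401 bp, a place without a gene on chromosome 14, another on chromosome 10, and Klra7 at 540146 bp. Allo 3 was highest at all 5 of these.

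**Figure D5:**
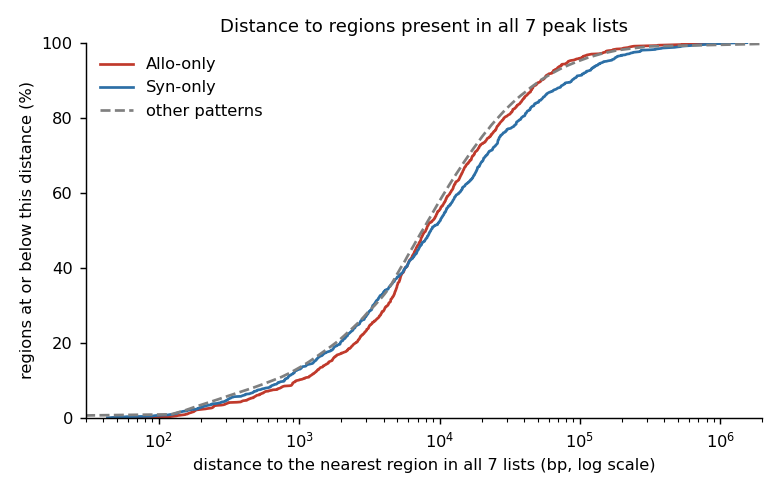
Cumulative share of regions by distance to the nearest region present in all 7 libraries (log scale) for Allo-only, Syn-only and all other regions. The medians are 7990, 8673 and 7546 bp, and beyond 10 kb the Syn-only curve lies lowest.

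The 1083 constantly present regions within 10 kb of an Allo-only region had ranks close to those of all constantly present regions. Their median rank was 62.5, 64.6 and 65.8 in Syn 1 to 3 and 60.2, 66.3, 70.9 and 68.2 in Allo 1 to 4. All 50324 such regions had 64.7, 65.6 and 66.8 in Syn and 59.5, 66.5, 71.2 and 68.9 in Allo. The largest gap between these neighbours and all lay in Syn 1 and was smaller than the range between libraries.

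By position, 646 Allo-only regions (54.6%) had their summit in a gene body, 360 lay within 50 kb of a gene and 177 (14.96%) had no gene within that distance. A gene end lay within 1 kb of the summit in 48 (4.06%), as in 36 Syn-only regions (3.43%) but in 24.1% of regions present in all 7. Of the 24 interferon regions 4 were at a gene end, at Gbp2, Gbp4, Oas2 and Tgtp1. Genes with an Allo-only region and a Syn-only region numbered 77. One of 1005 microRNA hairpins in RefSeq overlapped an Allo-only region.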

How the data were processed

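The 7 deposited peak lists, 1 per library and not pooled, have 10 columns per peak. Per the submitters' processing notes, Trim Galore, Bowtie2, MACS2, MACS3 and mm10 were used. Which caller made which list, its threshold and the read filters were not given in the sources used here. For every peak the authors deposited a score, a fold (ratio) over background, and the −log10 of the p-value and of the q-value. Each is the peak's own value. Ranks were taken within each list, and −log10 q and pileups are set side by side between libraries as a description, since depth moves them. Read counts were not used here, so depth is unknown, and intervals cover the counting of regions only. Pileups were solved from the deposited fold and −log10 p, within 0.001 for 100% of peaks.

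Peaks on chromosomes 1 to 19 and X were merged at 1 bp overlap. Groups came from the titles. The RefSeq table of GRCm38.p6 gives 21631 protein-coding genes without strand, so gene ends replaced starts except in promoter windows; 507 of 519 list genes matched. Library values were compared by exact permutation over 35 relabellings. The members and the 23 gene lists were chosen with earlier results of these data known. Named were genes with at least 3 Allo-only regions, all regions of the interferon, checkpoint, MHC and T and NK cell lists, up to 4 for each other list, the 5 leading runs, the 15 highest ranked, the 5 closest to and 5 farthest from a region in all 7, regions at promoters and 5 check genes; not all are printed, and some are not reported here. Merging, distances and pileups were tested on simulated data. Alternatives changed the threshold, list length, summit windows, coverage, merging gap, gene assignment and libraries. Python 3.11.15, pandas 2.3.3, numpy 2.4.6, scipy 1.17.1 and matplotlib 3.10.9 were used.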

Additional observations from a re-analysis of the deposited data

Results flagged for a closer look

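Of 112 sets of 4 Allo values, 8 had a lowest or highest library farther from the rest than expected of 4 values at the 95% level of Dixon's test, and chance gives about 1 in 20. All 8 were Allo 3. It had the highest median pileup over the Allo-only regions, 32. It had the highest −log10 q at Frmd4a (34.1), Atp2b2 (35.9), Tead1 (8.29), Thsd4 (45.6) and a region without a gene on chromosome 14 (29.4), and the lowest at the second Irf9 region (4.36). It also had a gene-end peak at 20 stem cell genes, where Allo 1, 2 and 4 had 21.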

How the results depend on the processing

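Results without a test were set against their exact 95% interval or, for counts, a factor of 1.5. Leaving out 1 library gave 1279 to 2453 Allo-only regions, 74 to 235 genes with 2 or more, 12.05% to 20.34% within 50 kb of another, median distances of 7308 to 8234.5 bp and 1084 to 2021 Syn-only regions. On X it gave 5 to 26 Allo-only and 32 to 54 Syn-only regions, and for peaks per library a difference of -414.7 (without Allo 3) to 8213.3 between Allo and Syn. With Syn and Allo 1 and 2 alone there were 103 genes with 2 or more, 15.43% within 50 kb, a median of 7127 bp and 2770 Syn-only regions, and on X 8 Allo-only and 89 Syn-only regions. With Syn and Allo 3 and 4 alone there were 7040 Allo-only regions, 1206 genes with 2 or more, 45.58% within 50 kb, 64 interferon regions, 26 of them at GTPases, and 2256 Syn-only regions, with 126 and 58 on X. With peaks of −log10 q of at least 5 where present and no peak at all where absent, there were 660 Allo-only and 507 Syn-only regions, 18 genes, 6.061% within 50 kb and 15 Syn-only regions on X. A −log10 q of at least 5 throughout gave 8.84% within 50 kb. Lists cut to the shortest gave a median distance of 10664.5 bp, and 50% coverage gave 10971.5 bp and 15.28%. Assignment by gene body alone gave 34 genes and 9 interferon regions, and a limit of 10 kb gave 43 genes. Narrower windows gave 3.55% within 10 kb and 2.282% within 500 bp of a gene end. The cause of these changes was not tested beyond what fewer libraries or peaks imply.

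The labels do not say that replicate numbers mark shared animals or days. With the number as a replicate block over 3 pairs, the difference in background pileup was -0.905 (exact permutation p = 0.25, the smallest that 3 pairs allow) and in peaks 1966 (exact permutation p = 0.75). Counts of X and GTPase regions under these settings were added after seeing the data. Read depth is unknown, and how far it and the callers limit which regions lack a Syn peak was not tested.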
